A study of Canis lupus familiaris with 6 samples.

Results

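Müller glia, the radial glia that span the retina, take up glutamate, move water and potassium, and buffer pH for the neurons around them. They also secrete proteins that bind Wnt ligands outside the cell. Described here are 9 genes of that equipment: the transport and metabolism genes GLUL, SLC1A3, AQP4 and CA2, the secreted Wnt-pathway genes SFRP1, SFRP2, DKK3 and WIF1, and the neuropeptide precursor gene NPVF. They were chosen by symbol, and all 9 were found among the 34981 genes of each library.

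Single-cell RNA was measured in immunosuppressed dogs whose own retinas were normal (genotype given as normal or wild-type). Fragments of human retinal organoids, grown from the embryonic stem cell line WA09 with a CRX-tdTomato reporter, had been placed in the subretinal space 3 days earlier. The groups were neuroretina overlying the graft (over graft, 3 libraries) and neuroretina from a graft-free area (control, 3 libraries), each from a 5 mm punch. Immunosuppression was therefore common to both groups. The 3 experiments are called LG5, RC726 and RC724, and each gave 1 library of each group. The labels do not say that each experiment used its own dog, and p-values therefore speak at most to how far the 3 experiments repeated one another.

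The deposited values are counts of unique molecular identifiers (UMIs), each a captured transcript end, so levels of different genes were not divided by length. Totals lay between 34768162 and 60755006 UMIs per library. After filtering, 76100 barcodes remained, 8051 to 22446 per library, with a median of 1195 to 2775 UMIs. Pairs of libraries shared 17 to 102 barcode sequences. LG5 stood apart from the other experiments in an estimate of free RNA. This was the share of rod-marker UMIs in Müller glia barcodes, as a percent of that share in the barcodes of all other classes. It was 18.5% (over graft) and 20.1% (control) in LG5, against 4.65% to 7.57% in the 4 RC726 and RC724 libraries. Doublets and wrongly assigned barcodes count in it along with free RNA. Each value below that changed its call or direction without LG5 is given with that change.

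Cell classes were assigned by a marker gate, a score per barcode over known marker genes of 11 classes. The Müller glia gate used 9 markers (among them RLBP1, RGR, SOX9 and SOX2) and none of the 9 genes described here. It held 4937 against 3432 barcodes for LG5, 1345 against 980 for RC726, and for RC724 1340 against 1136 (over graft against control). Its share of retained barcodes averaged 16.6% ± 4.83 over the graft and 14.99% ± 4.98 in control (SD, n = 3 each), and an exact paired sign-flip test gave p = 0.25, the smallest that 3 pairs allow. Median UMIs per Müller glia barcode were 2886 against 2941 for LG5, 13084 against 7652 for RC726, and for RC724 21778 against 21547 (over graft against control). Markers of rods summed to between 417 and 2661 UMIs per 1000000 UMIs of the gate (CPM) in this gate, and markers of retinal pigment epithelium to at most 6.04 CPM.

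All 9 genes were higher in Müller glia-gated barcodes than in all other gated barcodes, in 6 of 6 libraries. SFRP2, a secreted frizzled-related protein that binds Wnt ligands, was by far the most abundant of them. It averaged 24305 ± 2532 CPM (SD, n = 6 libraries), or 2.43% of all UMIs in the gate, and ranked 3 among all genes there. GLUL, the glutamine synthetase that turns glutamate into glutamine, ranked 24 at 2712 ± 1572 CPM. SFRP1, a second frizzled-related protein, ranked 27 at 2474 ± 377 CPM. NPVF, the precursor of RFamide-related neuropeptides, ranked 105 at 975 ± 319.9 CPM, above the glutamate transporter SLC1A3 at 658 ± 127 CPM. CA2, the cytosolic carbonic anhydrase, averaged 606 ± 202 CPM, and DKK3, a divergent member of the Dickkopf family, 446 ± 86.7 CPM. AQP4, the water channel of glial endfeet, averaged 328 ± 57.0 CPM. WIF1, a secreted protein that binds Wnt ligands, was close to missing at 1.33 ± 0.79 CPM and ranked 14681. Its Müller glia level rested on 3 to 61 UMIs per library. In the horizontal gate WIF1 averaged 2.30 CPM over the graft, on 1 UMI per library, against 1.43 CPM in Müller glia, and 0 CPM in control against 1.22 CPM. Neighbours in this order did not differ beyond their SDs for GLUL and SFRP1, NPVF and SLC1A3, SLC1A3 and CA2, and CA2 and DKK3.

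The fold between the Müller glia gate and the other gates separated 7 of the genes from CA2 and WIF1. The median fold over 6 libraries was 61.2 for SFRP2, 59.3 for SFRP1, 56.7 for AQP4, 53.4 for SLC1A3, 52.1 for NPVF, 38.8 for DKK3 and 23.8 for GLUL. It was 4.79 for WIF1 and 2.56 for CA2. In edgeR's quasi-likelihood test the log2 differences ran from 2.13 ± 0.22 (SE) for CA2, adjusted p = 4.88e-05, to 5.73 ± 0.52 for SFRP2, adjusted p = 2.53e-05. By this test 9 of 9 genes were higher, beside 32.1% of the 20381 genes tested. Of the UMIs that all gates held, the Müller glia gate had 87.5% to 98.6% for SFRP2, 86.7% to 98.8% for SFRP1 and 78.5% to 96.2% for GLUL, with the lowest shares in LG5. For CA2 the share was 63.2% to 74.6%.

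**Figure D1:**
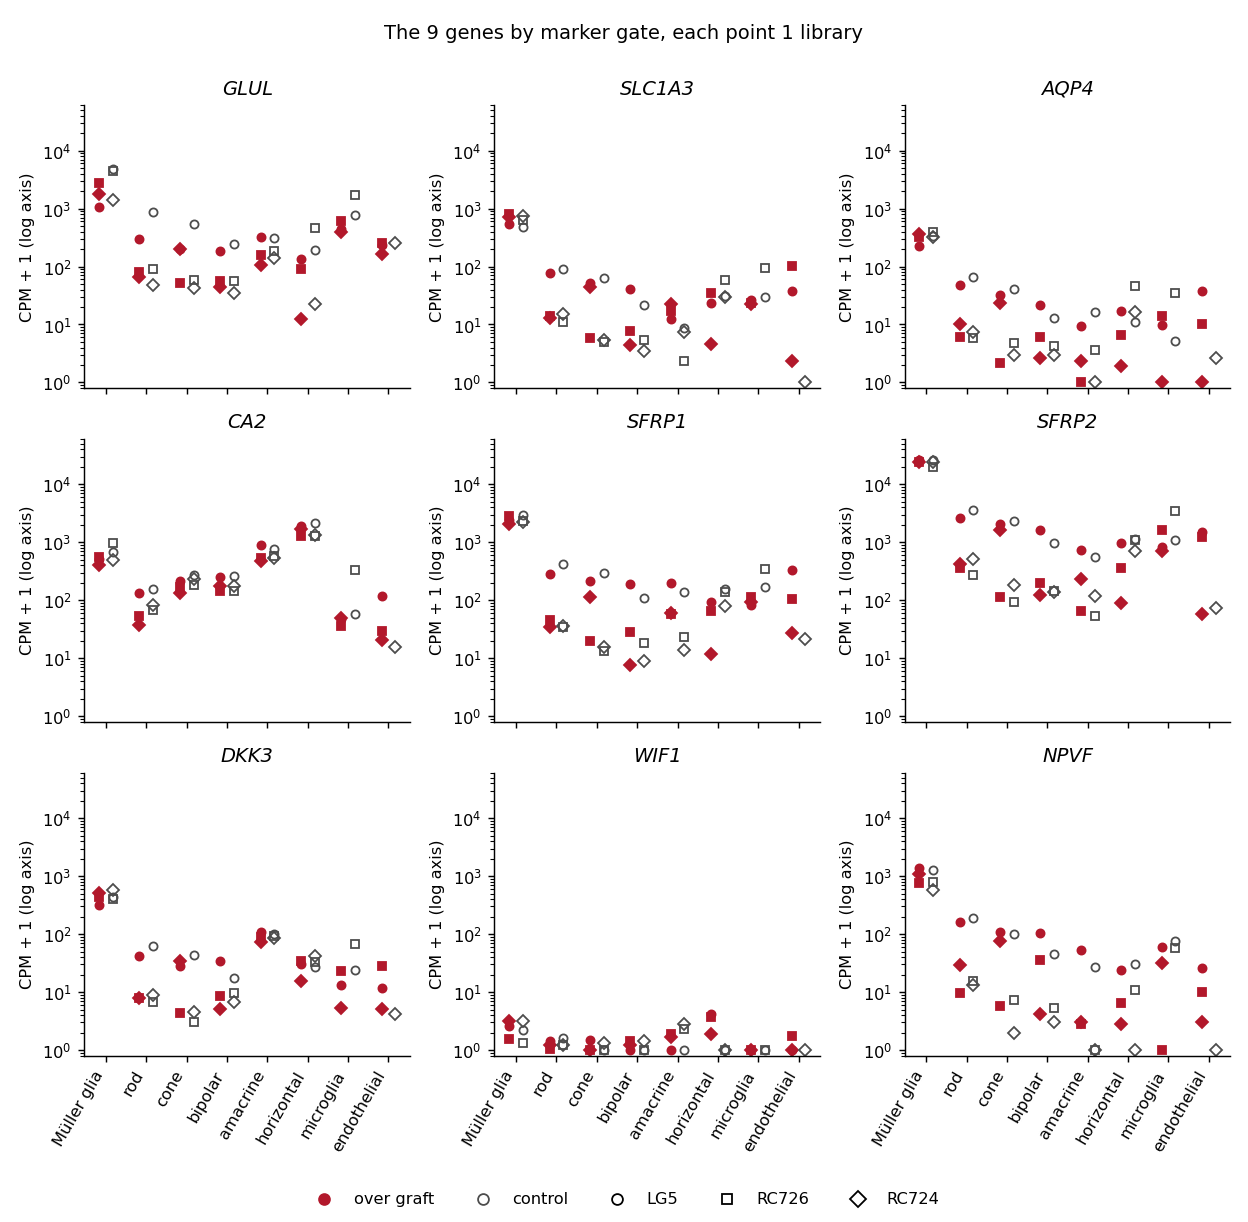
Level of the 9 genes in 8 marker gates, as CPM + 1 on a log axis. Each point is 1 library with at least 20 barcodes in that gate (filled, over graft; open, control; shape, experiment). SFRP2 lies at 19762 CPM or more in every Müller glia sum, while CA2 is highest in the horizontal gate and WIF1 is at most 3.23 CPM in any gate.

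CA2 was not a gene of Müller glia alone. Its highest level was in the horizontal cell gate, at 1614 ± 381 CPM (SD, n = 6), and in each of 6 libraries that level was above the one in Müller glia, at a median of 291% of it (range 130.1% to 428%). The amacrine gate followed at 629 ± 167 CPM and the Müller glia gate at 606 ± 202 CPM, a difference smaller than the SD. Cone, bipolar and ganglion cell gates held 201 ± 49.2, 191 ± 54.2 and 174 ± 101 CPM (n = 6, 6 and 2), again within each other's SD. Rods had the lowest CA2 level among the neurons, at 87.1 ± 46.7 CPM.

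DKK3 also had a neuronal level. In the amacrine gate it reached 90.8 ± 12.3 CPM (n = 6), a median of 21.8% of the Müller glia level, and in the ganglion cell gate 68.0 ± 29.2 CPM (n = 2). In rod, cone and bipolar gates its median level was 1.52% to 3.64% of that in Müller glia. GLUL was next highest in the microglia or macrophage gate, at 778 ± 527 CPM (n = 5), a median of 21.8% of the Müller glia level, and then in rods at 240.3 ± 317 CPM and endothelial cells at 225 ± 43.6 CPM (n = 4). From rods downward, neighbouring gates did not differ in GLUL beyond their SDs.

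For the other genes the level outside Müller glia was low and differed between libraries. In rods, SFRP2 had 2662 CPM against 3596 CPM for LG5, 357 against 267 CPM for RC726, and for RC724 424 against 507 CPM (over graft against control). Across the 7 genes other than CA2 and WIF1, the rod level was 9.96% to 28.3% of the Müller glia level in LG5 and 1.16% to 3.53% in RC726 and RC724. In rods 5 of the genes were below their Müller glia level by nearly the same factor as SFRP2, while GLUL and CA2 were not. Relative to SFRP2, the rod percentage of the Müller glia level was 1.05 for SFRP1 and DKK3, 1.12 for SLC1A3, 1.13 for NPVF and 1.25 for AQP4 (medians over 6 libraries). GLUL stood at 1.76 and CA2 at 5.14. By the same measure CA2 had a median of 172 (range 54.7 to 347) in the amacrine and 98.3 (23.6 to 1157) in the horizontal gate. It had 25.5 (8.10 to 84.4) in the bipolar and 22.4 (4.58 to 64.0) in the cone gate. In the ganglion cell gate only 2 libraries counted, both of LG5, with 7.80 and 71.7 for CA2 and 5.73 and 40.8 for DKK3. DKK3 had 22.5 (11.1 to 88.9) in the amacrine gate. SFRP1 had 3.06 (1.18 to 7.57) in the amacrine and 2.79 (0.730 to 5.51, n = 4) in the endothelial gate. GLUL had 21.0 (1.81 to 59.8, n = 4) in the endothelial and 13.5 (3.09 to 21.0) in the amacrine gate. In the microglia or macrophage gate GLUL had 3.82 (2.19 to 13.5, n = 5).

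SFRP2 UMIs were found in most Müller glia barcodes and in many rods. With every barcode of at least 1000 UMIs thinned to 1000 UMIs, 97.4%, 96.7% and 92.7% of Müller glia barcodes over the graft and 98.2%, 97.5% and 94.6% in control had an SFRP2 UMI (LG5, RC726, RC724). In rods it was 44.8%, 20.4% and 27.2% over the graft and 52.2%, 21.4% and 32.9% in control. Unthinned, rods showed 34.5% to 50.4% at median depths of 891 to 2024 UMIs, and Müller glia 99.1% to 99.9%. The part of free RNA and of doublets in the rod values was not tested. AQP4, a less abundant gene, had a UMI in 22.3% to 28.6% of thinned Müller glia barcodes and in 0.491% to 6.24% of thinned rods. WIF1 had a UMI in 0.446%, 0.669% and 3.36% of unthinned Müller glia barcodes over the graft and 0.350%, 0.306% and 3.43% in control (LG5, RC726, RC724), too few UMIs to compare after thinning. Thinning left out the Müller glia barcodes under 1000 UMIs, 152 of 4937 over the graft and 96 of 3432 in control in LG5. It left out most rods of LG5, where the median rod had 911 UMIs over the graft and 891 in control. The thinned rod percentages therefore describe the deeper rods only.

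**Figure D2:**
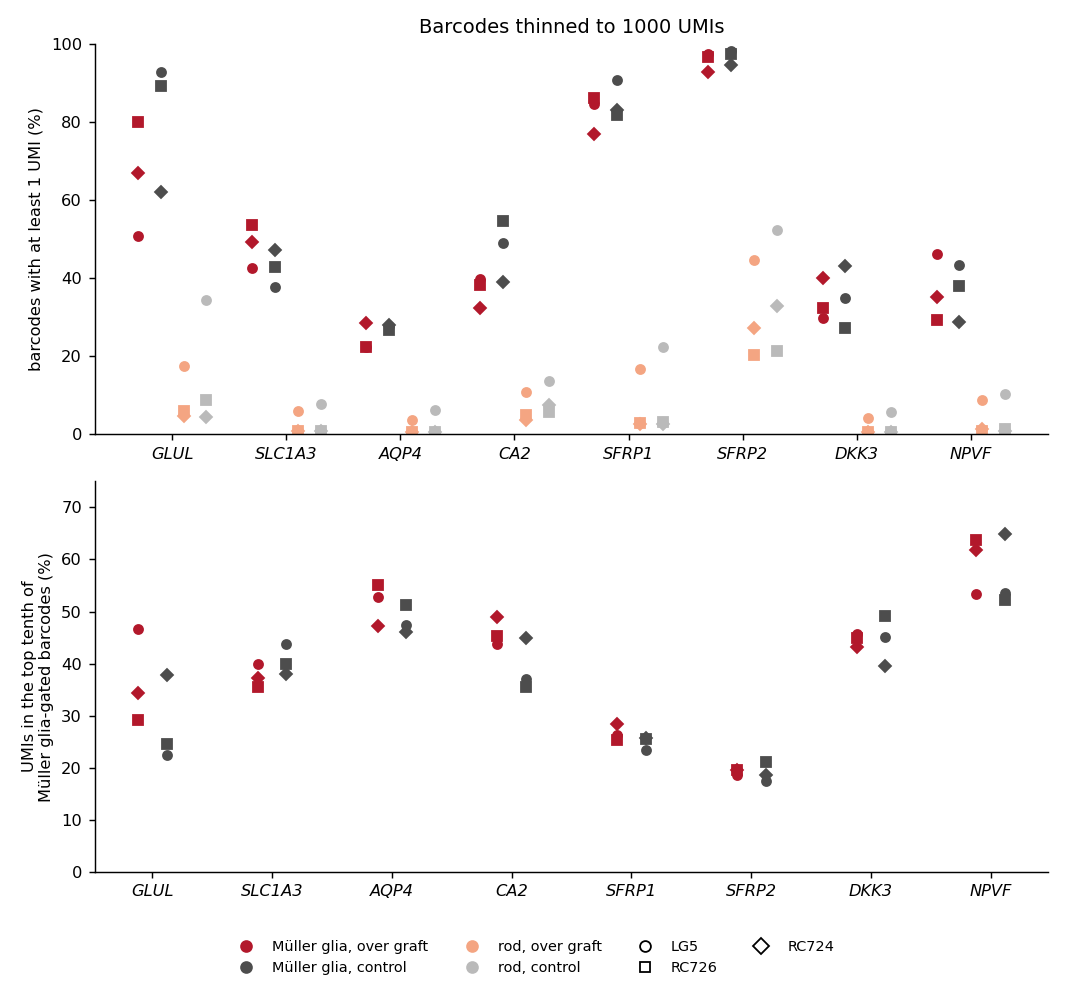
Upper panel, percent of barcodes with at least 1 UMI of each gene after thinning to 1000 UMIs, in Müller glia and rods of at least 1000 UMIs. Lower panel, percent of a gene's UMIs held by the tenth of Müller glia barcodes with most of them. Each point is 1 library (color, group and gate; shape, experiment). SFRP2 is seen in 92.7% to 98.2% of Müller glia barcodes, and the top 10% of barcodes hold 52.2% to 64.9% of NPVF UMIs, against 17.5% to 21.2% for SFRP2.

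NPVF was spread unevenly over Müller glia barcodes. After thinning, the 10% of barcodes with most NPVF held 53.3%, 63.8% and 61.8% of its UMIs over the graft and 53.6%, 52.2% and 64.9% in control (LG5, RC726, RC724). For SFRP2 the same share was 17.5% to 21.2%. CA2 and SLC1A3, with means of 0.43 to 0.93 UMIs per barcode against 0.61 to 1.44 for NPVF, had 35.5% to 48.9%. The variance of NPVF UMIs per barcode was 2.49 to 4.95 times the mean, against 1.07 to 1.29 for CA2 and SLC1A3. It was 4.92 to 7.42 for SFRP2, a far more abundant gene, and 1.95 to 3.29 for GLUL, with means of 1.42 to 4.78 UMIs and a top share of 22.5% to 46.7%. AQP4, with at most 0.35 UMIs per barcode, had a top share of 46.0% to 55.1%, which overlaps that of NPVF, and a variance of 1.03 to 1.22 times the mean. A single barcode held up to 40 NPVF UMIs of 1000, while the median barcode held 0 in all 6 libraries. Barcodes with at least 3 NPVF UMIs made up 19.2%, 8.33% and 13.2% of Müller glia over the graft and 16.3%, 8.74% and 7.02% in control (LG5, RC726, RC724). Between these barcodes and those with 0 NPVF UMIs, the median ratio of mean UMIs over 6 libraries was 1.21 for SFRP2, 1.17 for CA2, 1.15 for GLUL, 1.13 for SFRP1, 1.08 for AQP4, 0.96 for SLC1A3 and 0.93 for DKK3. Single libraries ranged between 0.70, for DKK3, and 1.57, for GLUL. The ratio was above 1 in 6 of 6 libraries for SFRP2 and GLUL. Correlations with NPVF across barcodes lay between -0.08 and 0.20, and they are weak correlations of sparse counts.

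None of the 9 genes passed the test for a change over the graft in Müller glia. The test was edgeR's quasi-likelihood test on UMI sums per library with the experiment as a block and Benjamini-Hochberg adjustment, and it called 58 of 16888 genes (0.343%), 40 higher and 18 lower. At an unadjusted p under 0.05 it gave 2363 genes (13.99%), and of the 9 only CA2. DESeq2, run on the same 16888 genes, called 344, among them CA2. This is the count over all genes for each DESeq2 call in Müller glia named below. The 9 genes had a median log2 difference of -0.08, and all genes tested a median of -0.001.

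**Figure D3:**
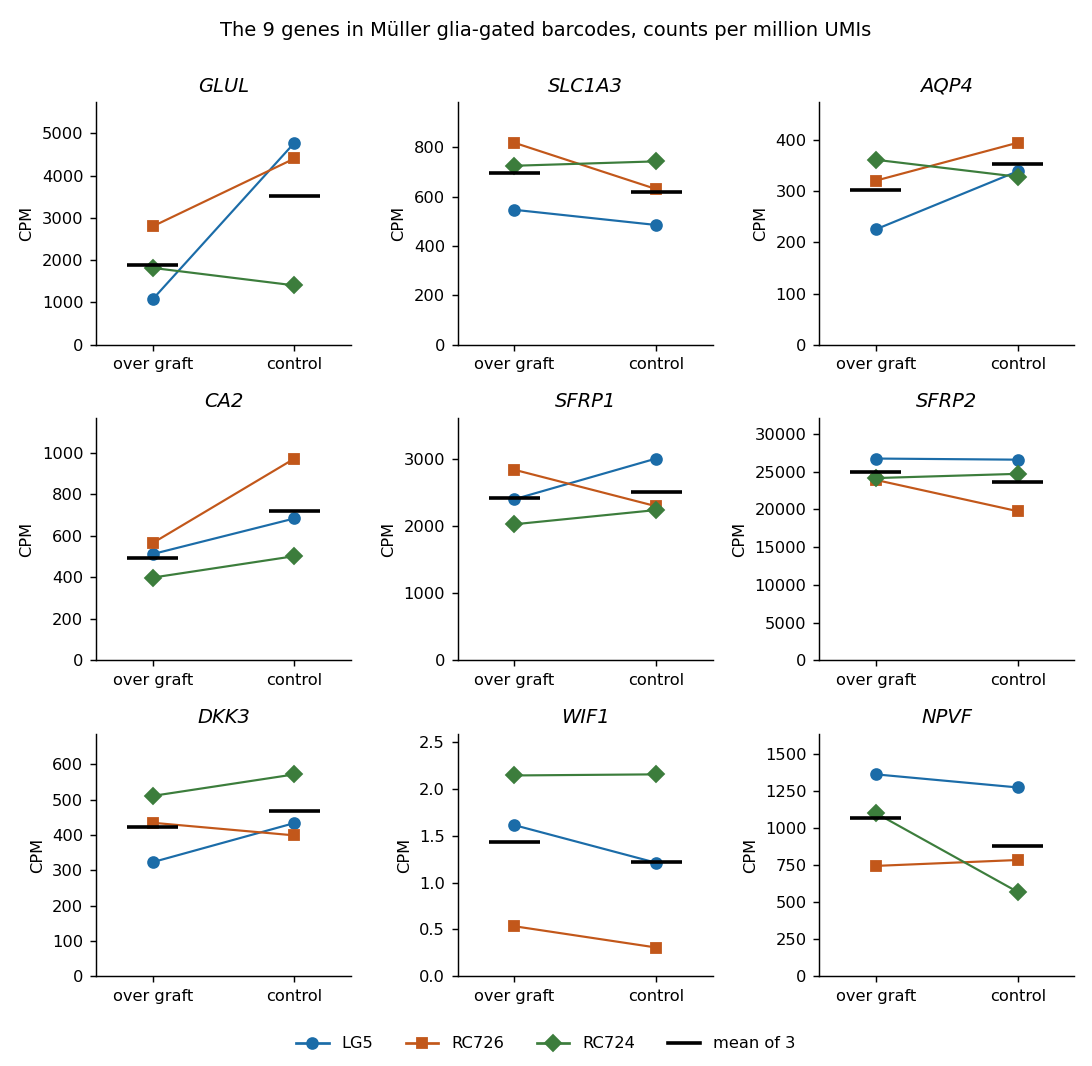
CPM of the 9 genes in Müller glia-gated barcodes, over graft left and control right, with a linear axis from 0. Lines join the libraries of 1 experiment and black bars are means of 3. CA2 is lower over the graft in 3 of 3 experiments, at 399 to 566 CPM against 503 to 973 CPM, and GLUL differs in direction between experiments.

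Among the transport genes, CA2 was lower over the graft in 3 of 3 experiments. It reached 513 CPM over the graft against 684 CPM in control tissue in LG5, with 566 against 973 CPM in RC726 and 399 against 503 CPM in RC724. The ranges overlapped between 503 and 566 CPM. The log2 difference was -0.53 ± 0.17 (SE), edgeR adjusted p = 0.22, and DESeq2 gave -0.55 with an adjusted p of 0.0492. The share of thinned Müller glia barcodes with a CA2 UMI averaged 36.8% ± 4.02 over the graft and 47.6% ± 7.85 in control (SD, n = 3 each, exact paired sign-flip test p = 0.25, two-sided).

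GLUL had the most negative difference of the 9 and varied in direction between experiments. It reached 1072 CPM over the graft against 4778 CPM in control tissue in LG5, with 2798 against 4405 CPM in RC726 and 1816 against 1402 CPM in RC724. The over-graft punch was thus below its control in LG5 and in RC726 but above it in RC724, whose control was the lowest of the 3 controls. The log2 difference was -0.83 ± 0.41 (SE), edgeR adjusted p = 0.42. It was -0.21 without LG5 and -1.39 without RC724, and neither fit called it. Without the filter on low counts, which raised the number of calls to 1308, GLUL was called at -0.80 with an adjusted p of 0.0033. The share of thinned barcodes with a GLUL UMI was 50.8%, 80.1% and 66.8% over the graft and 92.9%, 89.2% and 62.0% in control (LG5, RC726, RC724). Rods had the same direction as Müller glia in each experiment. GLUL in rods had 303 CPM against 858 CPM for LG5, 78.8 against 90.8 CPM for RC726, and for RC724 64.1 against 47.0 CPM (over graft against control). In LG5 17.6% of thinned rods over the graft and 34.4% in control had a GLUL UMI. The part of free RNA in the GLUL values was not tested.

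SLC1A3 and AQP4 stayed within the spread. SLC1A3, which clears glutamate from the synaptic layers, reached 546 CPM over the graft against 485 CPM in control tissue in LG5, with 818 against 630.2 CPM in RC726 and 725 against 742 CPM in RC724. Its log2 difference was 0.15 ± 0.16 (SE), edgeR adjusted p = 0.72. AQP4 reached 225 CPM over the graft against 339 CPM in control tissue in LG5, with 321 against 395 CPM in RC726 and 361 against 328 CPM in RC724. Its log2 difference was -0.27 ± 0.16 (SE), edgeR adjusted p = 0.47. For both genes the groups overlapped, and RC724 had the opposite sign to the other experiments.

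No secreted Wnt-pathway gene passed the test, and for each the groups overlapped. SFRP2 reached 26732 CPM over the graft against 26583 CPM in control tissue in LG5, with 23900 against 19762 CPM in RC726 and 24148 against 24707 CPM in RC724. The log2 difference was 0.06 ± 0.30 (SE), edgeR adjusted p = 0.96, and it was -0.02 without RC726. SFRP1 reached 2406 CPM over the graft against 3013 CPM in control tissue in LG5, with 2846 against 2302 CPM in RC726 and 2032 against 2245 CPM in RC724. Its log2 difference of -0.08 ± 0.20 (SE, edgeR adjusted p = 0.90) became 0.01 without LG5 and 0.01 without RC724. DKK3 reached 323 CPM over the graft against 434 CPM in control tissue in LG5, with 435 against 399 CPM in RC726 and 511 against 572 CPM in RC724, a log2 difference of -0.18 ± 0.15 (SE, edgeR adjusted p = 0.63). WIF1 reached 1.61 CPM over the graft against 1.21 CPM in control tissue in LG5, with 0.53 against 0.31 CPM in RC726 and 2.14 against 2.15 CPM in RC724. These are 3 to 61 UMIs per library, and the log2 difference was 0.22 ± 0.33 (SE, edgeR adjusted p = 0.88).

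NPVF was higher over the graft in RC724 and nearly equal in the other experiments. It reached 1365 CPM over the graft against 1277 CPM in control tissue in LG5, with 746 against 786 CPM in RC726 and 1103 against 570.2 CPM in RC724. Its log2 difference was 0.30 ± 0.22 (SE), edgeR adjusted p = 0.58. Of 5 listed genes for RFamide peptides and their receptors, 4 were in the files and 0 had enough counts to be tested in Müller glia.

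**Figure D4:**
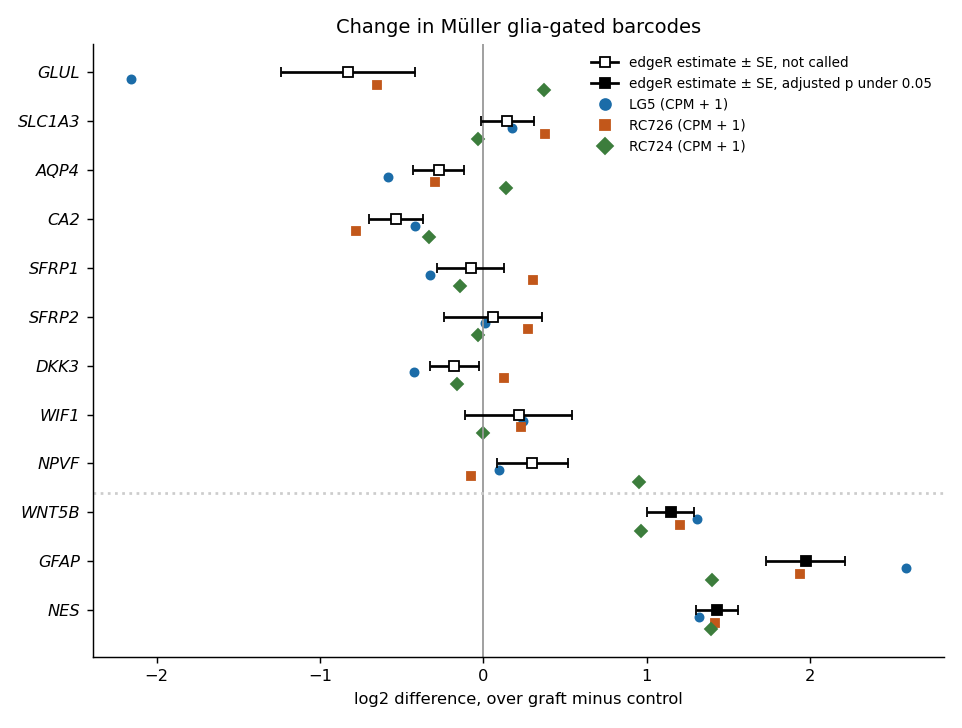
Log2 difference, over graft minus control, in Müller glia-gated barcodes. Squares are edgeR estimates with SE (filled where the adjusted p is under 0.05), and colored points are the ratios of CPM + 1 in each experiment. The 9 genes lie between -0.83 and 0.30 and none is called, while WNT5B, GFAP and NES lie between 1.15 and 1.97 and are called.

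Of the wider Wnt pathway in Müller glia, 1 gene passed the test. WNT5B, a secreted Wnt ligand, reached 38.3 CPM over the graft against 14.9 CPM in control tissue in LG5, with 81.5 against 34.9 CPM in RC726 and 169.8 against 86.6 CPM in RC724. Each punch over the graft was above its own control, while the groups overlapped, with RC724 the highest experiment in both. The log2 difference was 1.15 ± 0.14 (SE), edgeR adjusted p = 0.0291. The call was lost with free RNA subtracted (1.19, adjusted p = 0.144), with GLUL, SLC1A3 and AQP4 added to the gate (1.16, 0.0548), with VIM and CLU added (1.16, 0.0571) and without the experiment block (1.03). WNT5B was itself higher in Müller glia than in the other gates, by 3.76 ± 0.26 (SE, log2, edgeR adjusted p = 7.45e-06). Its change in Müller glia exceeded that in rods by 1.05 ± 0.21 (SE, log2, edgeR adjusted p = 0.0307), a call lost without RC724 (adjusted p = 0.20) and without RC726 (0.34). In all, 1 of 8 tested Wnt ligand and secretion genes rose and 0 fell, beside 0.343% of all genes called, with 2 at an unadjusted p under 0.05 and a median log2 difference of 0.36.

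Of 12 other Wnt inhibitors tested, 0 were called, with 3 at an unadjusted p under 0.05 (DKK1, NOTUM and IGFBP4, all higher over the graft) and 0 called by DESeq2. Over all genes edgeR called 0.343%, with 13.99% at an unadjusted p under 0.05, and these shares hold also for the receptors and target genes below. DESeq2 calls on these lists stand beside the DESeq2 count over all genes given above. The 12 inhibitors had a median log2 difference of -0.10. FRZB, another frizzled-related protein, was the most abundant, with 158 ± 37.8 CPM over the graft against 137 ± 35.2 CPM in control (SD, n = 3 each). KREMEN1, a receptor for Dickkopf proteins, had 30.5 ± 8.60 CPM over the graft against 33.8 ± 10.3 CPM in control, and DKKL1 had 27.7 ± 7.93 against 24.6 ± 7.55 CPM. Of 20 Wnt receptors and transducers 0 were called by edgeR, 2 had an unadjusted p under 0.05 (FZD5 and LGR6) and DESeq2 called LGR6, with a median of 0.05. LGR4, an R-spondin receptor, was the most abundant, with 545 ± 252 CPM over the graft against 545 ± 186 CPM in control, ahead of the Wnt receptors FZD5 (176 ± 109 over the graft against 109 ± 24.7 CPM in control) and ROR1 (119.9 ± 99.7 over the graft against 102 ± 88.3 CPM in control). Of 13 target and feedback genes 0 were called by edgeR, 2 had an unadjusted p under 0.05 (TCF7 and BAMBI) and DESeq2 called BAMBI, which was lower, with a list median of -0.05. CD44, an adhesion receptor, had 34.8 CPM against 30.9 CPM for LG5, 574 against 435 CPM for RC726, and for RC724 813 against 755 CPM (over graft against control). TCF7L2, a transcription factor of the pathway, also had 24.2 (over graft) and 29.8 CPM (control) in LG5, against 266 CPM or more in the other experiments. Cell Ranger versions differed between these experiments, so experiment and software cannot be told apart in such levels. Within RC726 the version also differed between the library over the graft (7.1.0) and its control (7.0.0). In that experiment group and software cannot be told apart.

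Of 36 tested transport and metabolism genes other than the 4 above, 0 were called by edgeR, with 10 at an unadjusted p under 0.05 (5 of them higher over the graft). Over all genes edgeR called 0.343%, with 13.99% at an unadjusted p under 0.05. DESeq2 called 1 of the 36, the glutamate transporter SLC1A2, which was lower, beside the DESeq2 count over all genes given above. The 36 genes had a median log2 difference of 0.004. FXYD1, a regulator of ion transport, had 462 ± 101 CPM over the graft against 417 ± 73.5 CPM in control (SD, n = 3 each). The glucose transporter SLC2A1 had 274 ± 30.3 CPM over the graft against 319 ± 139 CPM in control.

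Müller glia over the graft were higher than control in 2 genes of gliosis. GFAP, the intermediate filament of reactive glia, reached 296 CPM over the graft against 48.5 CPM in control tissue in LG5, with 93.6 against 23.6 CPM in RC726 and 160.4 against 60.3 CPM in RC724. The groups did not overlap, and the log2 difference was 1.97 ± 0.24 (SE), edgeR adjusted p = 0.0291. NES, the filament protein nestin, had 36.9 CPM against 14.2 CPM for LG5, 22.2 against 7.67 CPM for RC726, and for RC724 39.5 against 14.4 CPM (over graft against control), a log2 difference of 1.43 ± 0.13 (SE, edgeR adjusted p = 0.0188). Of the 10 genes of this list 2 rose and 0 fell, beside 0.343% of all genes called, and 5 had an unadjusted p under 0.05, beside 13.99% of all genes. The list's median log2 difference was 0.54. GFAP is also a marker of astrocytes, and the 3 astrocyte markers (GFAP, PAX2 and S100B) summed to 301, 116 and 184 CPM over the graft against 60.3, 33.5 and 73.0 CPM in control (LG5, RC726, RC724), with 0 of 3 markers at 0 in any library. Most of this sum is GFAP itself. PAX2 and S100B alone summed to 5.15, 22.1 and 23.4 CPM over the graft against 11.7, 9.82 and 12.7 CPM in control, so LG5 was below its control and the other experiments above theirs. The part of astrocytes in these values was not tested. Both calls were lost with free RNA subtracted (adjusted p = 0.151 for GFAP and 0.0888 for NES) and without the block, and that of GFAP also with GLUL, SLC1A3 and AQP4 added to the gate (0.0693).

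Outside Müller glia, 5 gates had at least 20 barcodes in all 6 libraries and were tested. CA2 fell in rods, the only call among the 8 genes tested there, beside 10.4% of 15388 genes called lower and 21% called in either direction. With 1 of 8 called, the share among these genes was near that of all genes. CA2 reached 131 CPM over the graft against 156 CPM in control tissue in LG5, with 51.7 against 66.7 CPM in RC726 and 36.5 against 81.1 CPM in RC724. The log2 difference was -0.61 ± 0.15 (SE), edgeR adjusted p = 0.014, without RC724 it was -0.37, adjusted p = 0.146, and without the block no gene was called in rods. Relative to SFRP2, the rod percentage of the Müller glia level of CA2 was 2.56 over the graft and 1.69 in control in LG5. In RC726 and RC724 it was 5.07 to 7.86. The part of glial RNA in the rod CA2 levels was not tested. The change of CA2 in Müller glia minus that in rods was 0.12 ± 0.25 (SE, log2, edgeR adjusted p = 0.90), and -0.18 without RC724. In cones CA2 had a log2 difference of -0.48 ± 0.15 (SE, edgeR adjusted p = 0.19). The test of unequal change between Müller glia and rods called 0 of the 9 genes, 0 at an unadjusted p under 0.05, beside 1.7% of 18361 genes called and 13.4% at an unadjusted p under 0.05.

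In the amacrine gate 3 of 6 tested genes rose, beside 0.82% of 11102 genes called higher and 1.55% called in either direction. SFRP1 reached 197 CPM over the graft against 137 CPM in control tissue in LG5, with 57.9 against 22.5 CPM in RC726 and 60.4 against 12.7 CPM in RC724, a log2 difference of 1.11 ± 0.21 (SE, edgeR adjusted p = 0.000299). Without RC724 it was 0.74, adjusted p = 0.080. SLC1A3 rose by 1.65 ± 0.46 (SE, log2, edgeR adjusted p = 0.0437) on 14, 18 and 31 UMIs over the graft and 6, 1 and 7 UMIs in control (LG5, RC726, RC724), and SFRP2 by 0.57 ± 0.15 (SE, log2, edgeR adjusted p = 0.0333). SLC1A3 and SFRP2 lost their calls without any 1 of the 3 experiments, and no gene was called in this gate without the block. edgeR shares variance across genes, with a weight (prior degrees of freedom) of 71.3 in this gate against 5.97 in Müller glia. The p-values in the amacrine gate therefore rest largely on the variance of other genes. In RC724 over the graft, 1 of 92 amacrine barcodes held 206 of 337 SFRP2 UMIs (61.1%), and the 81 control barcodes together held 131. In RC726 over the graft, 3 of 83 barcodes held 59.4% of SFRP1 and 61.1% of SLC1A3 UMIs, and in its control 1 of 64 held 10 of 17 SFRP1 UMIs. For SFRP1 over the graft the top 3 barcodes held 13.0% in LG5 and 39.8% in RC724. Müller glia markers summed to 252, 68.8 and 102 CPM in this gate over the graft and 214, 55.6 and 85.1 CPM in control (LG5, RC726, RC724), with 0, 3 and 0 of 9 markers at 0 over the graft and 0, 5 and 0 in control. The part of glial RNA in these rises was not tested.

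The horizontal gate had the opposite direction for the same genes, and 0 of 6 tested genes were called by edgeR (4 at an unadjusted p under 0.05), beside 0.442% of 6106 genes called and 5.57% at an unadjusted p under 0.05. SFRP2 reached 971 CPM over the graft against 1161 CPM in control tissue in LG5, with 365 against 1087 CPM in RC726 and 89.4 against 701 CPM in RC724, a log2 difference of -1.57 ± 0.35 (SE, edgeR adjusted p = 0.0679). SFRP1 stood at -1.48 ± 0.31 (edgeR adjusted p = 0.0515), GLUL at -1.37 ± 0.30 (0.0685) and SLC1A3 at -1.35 ± 0.45 (0.56). Without LG5 these 4 passed, at -2.21, -1.85, -1.83 and -1.62, and without RC724 only GLUL did, at -1.55. In some libraries, though not in all, the UMIs behind them sat in very few barcodes. In RC724 over the graft, 43 of 56 horizontal barcodes shared the 100 SFRP2 UMIs, with at most 14 in 1 barcode. In the RC724 control, 1 of 38 horizontal barcodes held 580 of 640 SFRP2 UMIs, 70 of 71 SFRP1 UMIs and all 26 SLC1A3 UMIs. In the RC726 control, 1 of 37 held 363 of 433 SFRP2 UMIs and 152 of 180 GLUL UMIs, and over the graft 1 of 49 held 87 of 131 SFRP2 UMIs.

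**Figure D5:**
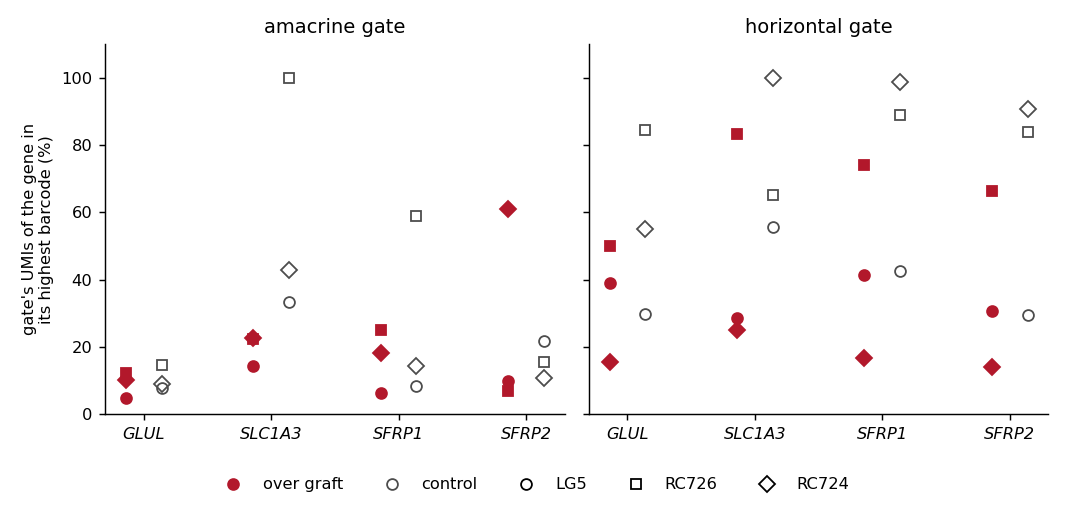
Percent of a gene's UMIs in the amacrine gate (left) and the horizontal gate (right) that lay in the single barcode with most of them. Each point is 1 library (filled, over graft; open, control; shape, experiment). In the horizontal gate the highest barcode held 90.6% of SFRP2 UMIs in the RC724 control and 83.8% in the RC726 control.

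In bipolar cells NPVF had a log2 difference of 1.60 ± 0.31 (SE, edgeR adjusted p = 0.0535), and 0 of 8 tested genes were called (3 at an unadjusted p under 0.05), beside 0.43% of 13727 genes called and 14.1% at an unadjusted p under 0.05. Without RC724 the NPVF difference passed (1.74, adjusted p = 6.93e-05). Over the graft in RC726, 1 of 717 bipolar barcodes held 133 of 170 NPVF UMIs, and without that experiment the difference was 0.99, adjusted p = 0.0583. In cones 0 of 8 tested genes were called (1 at an unadjusted p under 0.05), beside 1.37% of 12084 genes called and 14.5% at an unadjusted p under 0.05. There SFRP2 had 5125 UMIs in 234 barcodes over the graft in RC724, of which 3 barcodes held 51.0%, and 560 UMIs in 305 control barcodes.

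Summed over all retained barcodes of a punch, 0 of the 9 genes were called by edgeR (2 at an unadjusted p under 0.05), beside 2.91% of 21327 genes called and 23.5% at an unadjusted p under 0.05, so the unadjusted share of the 9 was near that of all genes. The 2 were CA2, lower over the graft, and NPVF, higher. CA2 had 366 CPM against 434 CPM for LG5, 281 against 381 CPM for RC726, and for RC724 283 against 346 CPM (over graft against control). The log2 differences ran from -0.57 ± 0.43 (SE) for GLUL (edgeR adjusted p = 0.47, and 0.06 without LG5) to 0.49 ± 0.20 for NPVF (adjusted p = 0.20), with SLC1A3 at 0.36 ± 0.16 (adjusted p = 0.23). In such sums more Müller glia and more RNA per cell cannot be told apart.

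The genes whose level ran most like each of the 9 over 48 sums (each a gate in a library, sharing that library's depth and free RNA) were found among 12385 genes. For SFRP2 these were LOC477072, MFAP5 and SFRP1, with Pearson r = 0.98, 0.97 and 0.95. SFRP1 ran most like MFAP5 (0.96), SFRP2 and RLBP1, and SLC1A3 most like CHRDL1, ITGB8 and TNFAIP6 (all 0.96). AQP4 ran most like MLC1 (0.97), RLBP1 and SOX2 (both 0.96), and NPVF most like LOC102156106 (0.95), DAPL1 and OAF (both 0.94). DKK3 ran most like GFRA1 (0.95), CA14 and FGF13, and GLUL most like PADI2 (0.91), ABCA6 and MFAP2 (both 0.87). CA2 paired with a different set, TECR (0.90), NDP (0.89) and SEC62 (0.87), and its r with AQP4 was 0.31. WIF1 had no r above 0.61. RLBP1 and SOX2 are markers of the gate itself.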

How the data were processed

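Per the labels' protocols, punches were digested with trypsin and dissociated, and 10X 3' v3.1 libraries were made. Deposited for each library were whole-number UMI counts without normalization. Cell Ranger was run by the authors in version 6.0.2 (both LG5 libraries), 7.1.0 (RC726 over graft, both RC724 libraries) and 7.0.0 (RC726 control), per the file headers. Which genome build and annotation were used, and how intron and human reads were treated, is not given in these sources. No barcode had fewer than 500 UMIs.

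A barcode was kept if it had 300 or more genes and no more than 20% mitochondrial UMIs (13 genes). The automatic doublet threshold of scanpy 1.11.5 called at most 0.0351%, so the 6% with the highest score were removed per library. A barcode joined the class with the highest Poisson log-likelihood ratio over markers, with a ratio and a margin of at least 3 and at least 2 markers. VIM and CLU were left out of the Müller glia markers after the data were seen. Ungated barcodes were 5.79% to 19.8%.

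UMIs were summed per library and gate (at least 20 barcodes in all 6) and tested with edgeR 4.0.16 (filterByExpr, TMM, quasi-likelihood, experiment as a block, Benjamini-Hochberg at 0.05) in R 4.3.3, with DESeq2 1.42.0 as an alternative. The tests of change in Müller glia, of Müller glia against the other gates and of unequal change were also run on simulated counts. These held no free RNA, doublets or outlying barcodes, and the other gates were not simulated, so the run says nothing about the small gates. Log2 ratios per experiment use CPM + 1. Both punches of an experiment come from 1 retina per the series' design, and the paired libraries deviated together (r = 0.92, 0.87 and 0.84 over 16888 genes for LG5, RC726 and RC724). Likeness is Pearson r of log2(CPM + 10) among genes of at least 20 CPM in some gate, and the 3 highest are named. All 9 genes are named; of each other list, those called or, where none was, the 3 most abundant (1 of them is not reported here), and further genes named from a list were chosen after their values were seen. The genes and lists were chosen with earlier results of these data known.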

Additional observations from a re-analysis of the deposited data

Results flagged for a closer look

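For 3 genes the amacrine and horizontal gates moved in opposite directions in 3 of 3 experiments, and for SLC1A3 the bipolar and horizontal gates did too. The mean log2 ratio of CPM + 1 over the experiments was 1.68 in the amacrine gate and -1.28 in the horizontal gate for SLC1A3, a gap of 2.96. For SFRP1 it was 1.34 and -1.52, a gap of 2.85, and for SFRP2 0.55 and -1.60, a gap of 2.15. SLC1A3 in the bipolar gate had 0.60, a gap of 1.88 to the horizontal gate. In these cases the difference was not tested. In the RC724 control 1 horizontal barcode held 90.6% of SFRP2, 98.6% of SFRP1 and all SLC1A3 UMIs of that gate.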

How the results depend on the processing

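Fits without the replicate block (not paired by experiment) called 0 genes in Müller glia, rods, cones, bipolar, amacrine and horizontal cells and the whole punch, with 152, 574, 196, 55, 44, 42 and 337 genes at an unadjusted p under 0.05 (edgeR). In Müller glia, against 58 calls, DESeq2 called 344 genes, no filter on low counts 1308, barcodes thinned to 1000 UMIs 158, no doublet removal 90, VIM and CLU added to the gate 17, GLUL, SLC1A3 and AQP4 added to the gate 9, and subtraction of free RNA 0 (1812 unadjusted). Leaving out 1 experiment gave 45 to 485 calls in Müller glia, 780 to 3399 in rods, 33 to 592 in cones, 5 to 215 in bipolar, 81 to 102 in amacrine and 14 to 174 in horizontal cells, and 26 to 550 for unequal change in Müller glia and rods. The highest count in Müller glia, cones and horizontal cells and for unequal change came without LG5. Without 1 experiment at a time the Müller glia difference ranged between -0.245 and 0.0128 for SFRP1 and between -0.0237 and 0.159 for SFRP2. In rods it ranged between -0.925 and 0.0943 for GLUL and between -0.388 and 0.0651 for SFRP2. For GLUL in the whole punch it ranged between -1.13 and 0.0575, and for CA2 in Müller glia minus rods between -0.179 and 0.425. The cause was not tested. Thinning and the VIM and CLU gate were added after the data were seen. Few UMIs limit WIF1, and few barcodes limit the horizontal gate.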
